A study of Homo sapiens with 8 samples.

Results

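Zinc enters the cytosol through transporters of the SLC39A (ZIP) family and leaves it, to the outside or into organelles, through those of the SLC30A (ZnT) family. The prostate holds more zinc than most soft tissues, and its secretory cells release citrate that, at high zinc, is not oxidized. Prostate carcinoma cells usually hold less zinc. The transporters described here were 5 SLC30A genes (SLC30A1, SLC30A4, SLC30A5, SLC30A7 and SLC30A9) and 5 SLC39A genes (SLC39A1, SLC39A6, SLC39A7, SLC39A9 and SLC39A10), taken by gene symbol as a fixed list. That list was chosen with earlier results of these data known. All 10 were found among the 19415 genes of the table, as 35 of its 81591 transcripts, and all 10 passed the filter on low values. At the level of single transcripts 25 of the 35 passed, and 5 stayed under an FPKM of 0.01 in every library.

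RNA was taken from LNCaP-FGC cells, a clonal androgen-dependent line from a human prostate carcinoma. The cells had 24 h of I-CBP112, of A-485, of both compounds, or of the solvent DMSO, and the labels give no other difference between the groups. I-CBP112 occupies the bromodomain of the coactivators p300 and CBP, which reads acetylated histones, and A-485 blocks their acetyltransferase site, so the 4 groups address the parts of one enzyme pair singly and together. The labels give no dose of either compound. Each group held 2 libraries, numbered 1 and 2. Nothing in the labels says that they came from separate cultures, so p-values measure the spread between these libraries, which may be technical.

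Libraries numbered 1 held 16.0 to 28.2 M fragments on the transcripts of the table (M for 1e+06), and those numbered 2 held 4.43 to 13.6 M. These made up 90.7 to 99.2% of the fragments used for normalization in libraries 1, but 21.5 to 49.4% in libraries 2, so the number 2 libraries stood apart in every group. Levels are given as scaled FPKM, that is fragments divided by transcript length in kilobases and by the library's normalizing fragments in units of 1e+06, summed over a gene's transcripts and scaled between libraries. All 9 luminal prostate markers were measured, with summed levels of 3380 to 3601 with I-CBP112, 2147 to 2537 with A-485, 1821 to 2468 with both compounds and 4845 to 5854 with DMSO. Of the 9, 6 passed the test as lower both with A-485 and with both compounds (limma, adjusted p under 0.05), against 4.55% and 10.6% of all genes. With the replicate number as a block in the fit, FOLH1 was added as lower with A-485 (log2 fold change -0.80, limma adjusted p = 0.0174). In that fit 13.6% of all genes passed with A-485. The basal marker TP63, the stromal marker COL1A2 and the immune markers PTPRC and CD3E were at 0 in all 8 libraries. Summed over their lists, basal markers (4 genes) lay between 0.905 and 15.5 with I-CBP112, 0.0655 and 0.323 with A-485, 0.332 and 2.00 with both compounds, and 1.10 and 7.34 with DMSO. Stromal markers (4 genes) lay between 18.7 and 22.5, 25.0 and 28.2, 23.7 and 25.0, and 14.9 and 26.1 in the same groups. Blood and immune markers (3 genes) lay between 2.03 and 2.63 with I-CBP112, 2.12 and 5.76 with A-485, 3.98 and 5.93 with both compounds, and 1.44 and 1.89 with DMSO. Neuroendocrine markers (3 genes) lay between 1.48 and 2.92, 2.00 and 2.78, 4.82 and 5.07, and 1.48 and 1.59 in the same groups. The blood and immune sum was thus higher in both libraries of every treated group than in either DMSO library. For the neuroendocrine sum this held with A-485 and with both compounds, while the I-CBP112 and DMSO libraries overlapped. In each of these 2 lists only 1 gene passed the filter on low values. COL1A1, a stromal collagen gene, passed as higher with A-485 and with both compounds (log2 fold change 1.24 and 1.38), and SYP, a neuroendocrine marker, as higher with both (1.18). CD68, an immune marker, was 1.14 higher on the log2 scale with both compounds and passed with the block alone (limma adjusted p = 0.0825 without it and 0.0472 with it). With the block 20% of all genes passed in that comparison. The part of these shifts in the results below was not tested. In bulk samples fewer cells of a type and less RNA per cell cannot be told apart.

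Zinc itself can act on such genes through MTF1, a zinc-sensing transcription factor that binds metal response elements, whose core is TGCACNC or TGCGCNC. Promoters of the 10 genes were read from RefSeq (GRCh38.p14), as 250 bases before to 50 after the start of each gene, and searched on both strands. A core occurred in 3 of them. SLC30A1, the classical MTF1 target of the group, held TGCACNC at 2 places, whose first bases lie 49 bases before and 24 bases after the start. SLC30A4 and SLC39A6, the members with the lowest levels under both compounds relative to DMSO, each held TGCGCNC once, 124 and 17 bases before it. The cores are in capitals here, as read on the gene's own strand, where those of SLC30A1 appear as their reverse complement. All 3 genes lie on the minus strand, SLC30A1 at chr1:211579112-211579411, SLC30A4 at chr15:45522706-45523005 and SLC39A6 at chr18:36129291-36129590.
SLC30A1: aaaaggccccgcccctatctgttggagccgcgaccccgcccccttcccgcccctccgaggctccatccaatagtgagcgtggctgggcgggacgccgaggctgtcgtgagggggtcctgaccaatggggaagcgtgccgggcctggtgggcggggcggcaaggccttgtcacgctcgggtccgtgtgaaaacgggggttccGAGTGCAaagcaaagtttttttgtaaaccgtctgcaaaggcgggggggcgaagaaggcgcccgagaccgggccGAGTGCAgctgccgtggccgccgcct
SLC30A4: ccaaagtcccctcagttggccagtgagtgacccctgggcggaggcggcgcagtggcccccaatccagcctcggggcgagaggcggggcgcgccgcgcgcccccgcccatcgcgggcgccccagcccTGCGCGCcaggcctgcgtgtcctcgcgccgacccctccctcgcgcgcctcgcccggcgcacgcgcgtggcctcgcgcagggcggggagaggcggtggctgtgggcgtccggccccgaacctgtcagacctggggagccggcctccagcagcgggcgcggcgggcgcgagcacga
SLC39A6: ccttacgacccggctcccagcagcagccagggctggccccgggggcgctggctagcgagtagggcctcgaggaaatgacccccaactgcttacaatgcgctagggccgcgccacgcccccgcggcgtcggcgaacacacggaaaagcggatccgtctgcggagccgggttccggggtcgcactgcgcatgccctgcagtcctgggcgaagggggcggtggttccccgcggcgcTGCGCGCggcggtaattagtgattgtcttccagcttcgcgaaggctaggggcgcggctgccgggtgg
These cores are short and common: of 35114 promoters of the same length, 12.1% held TGCACNC and 20% held TGCGCNC. None of the 10 promoters held the cyclic AMP response element TGACGTCA (1.85% of all promoters) or the full palindromic androgen response element (0.00285%). SLC30A4 and SLC39A6 had the highest shares of G or C of the 10 promoters, at 79.7% and 70.7%, and SLC39A10 the lowest at 49.7%. A match is a letter match only, and binding was not measured here.

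SLC30A4 was the member that changed. It encodes ZnT4, which loads zinc into vesicles and endosomes and which the mouse mammary gland needs to put zinc into milk. Its scaled FPKM was 49.3 and 53.0 with I-CBP112, 23.7 and 26.6 with A-485, 12.3 and 13.8 with both compounds, and 43.0 and 50.4 with DMSO. The I-CBP112 and DMSO libraries overlapped, the A-485 libraries lay below both of those groups, and the libraries with both compounds lay below all the others. Group means were 51.2 ± 2.64 with I-CBP112, 25.1 ± 2.02 with A-485, 13.1 ± 1.09 with both compounds and 46.7 ± 5.28 with DMSO (SD, n = 2 each). The 8 values rested on about 1055 to 4503 fragments, so counting error was small beside the differences.

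**Figure D1:**
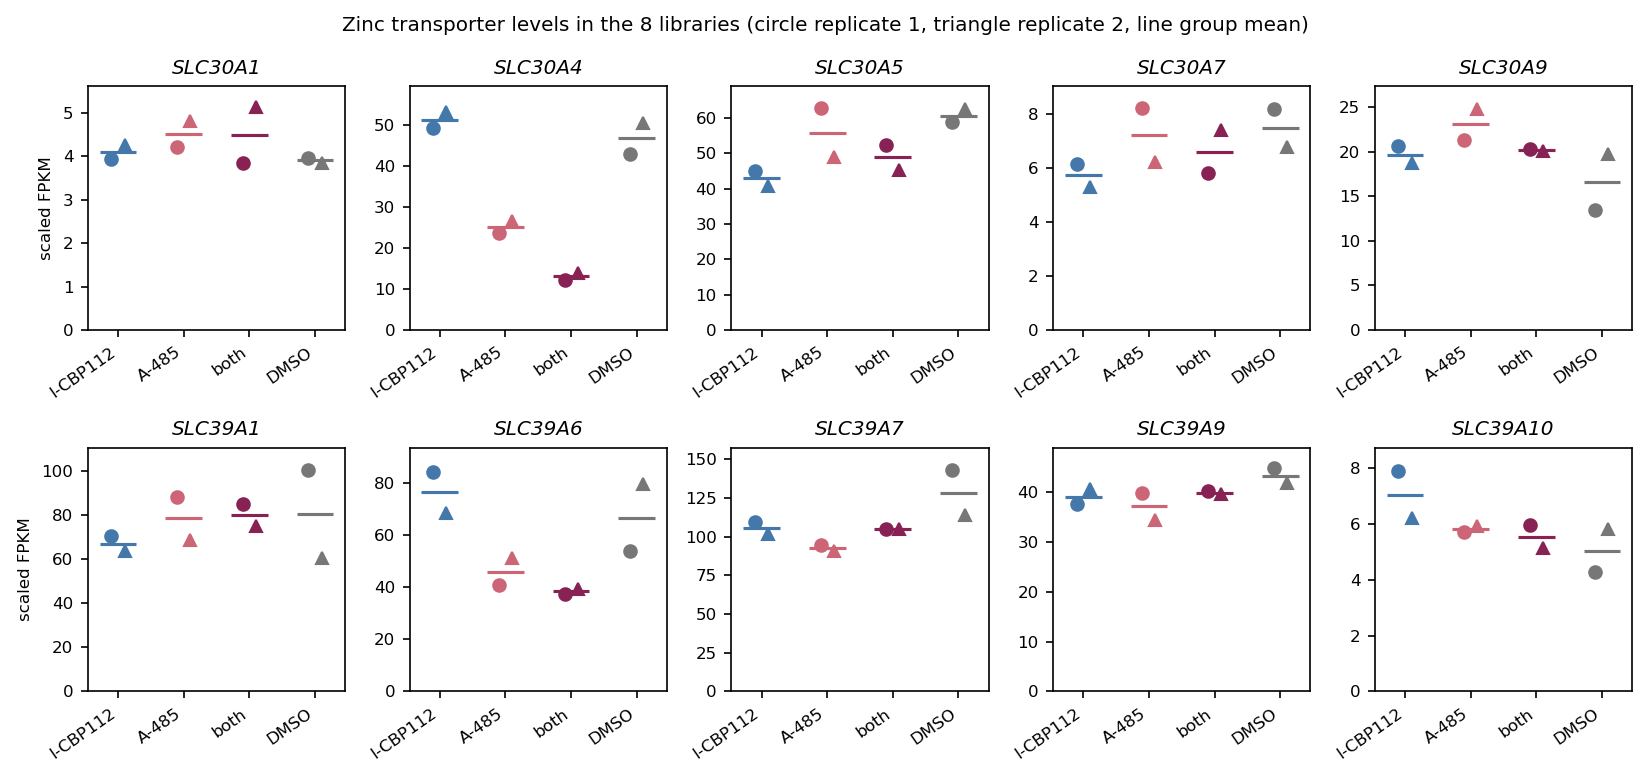
Scaled FPKM (vertical axes, each from 0) of the 10 zinc transporter genes in the I-CBP112, A-485, both-compound and DMSO libraries; circles are replicate 1, triangles replicate 2 and lines the mean of each group. SLC30A4 stands at 12.3 and 13.8 with both compounds, against 43.0 and 50.4 with DMSO, and is the only member that passed the test.

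Against DMSO, SLC30A4 fell with A-485 by a log2 fold change of -0.86 ± 0.17 (SE, limma adjusted p = 0.0350) and with both compounds by -1.76 ± 0.17 (limma adjusted p = 0.00119). With I-CBP112 the log2 fold change was 0.13 ± 0.17 (limma adjusted p = 0.810). The mean level with A-485 was 53.9% of the DMSO mean, and with both compounds it was 27.97%. Without any 1 of the 8 libraries the fall with both compounds still passed, at -1.87 to -1.65 (limma adjusted p = 0.0035 to 0.0180). The fall with A-485 alone kept its size, at -0.98 to -0.75, but lost the call in all 8 such fits (limma adjusted p = 0.0513 to 0.161). With no scaling between libraries the changes of SLC30A4 were -0.38 with A-485 and -0.99 with both compounds, and neither passed (limma adjusted p = 1 and 0.975). No gene passed in any comparison without scaling, so a call lost in that setting, here or below, is not particular to the gene.

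The same order held within each replicate number. In replicate 1, SLC30A4 stood at 115% of its DMSO library with I-CBP112, 55.2% with A-485 and, under both compounds, 28.6%. In replicate 2 these were 105%, 52.7% and 27.4%. The pair of values differed by less than 3 percentage points with A-485 and with both compounds.

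**Figure D2:**
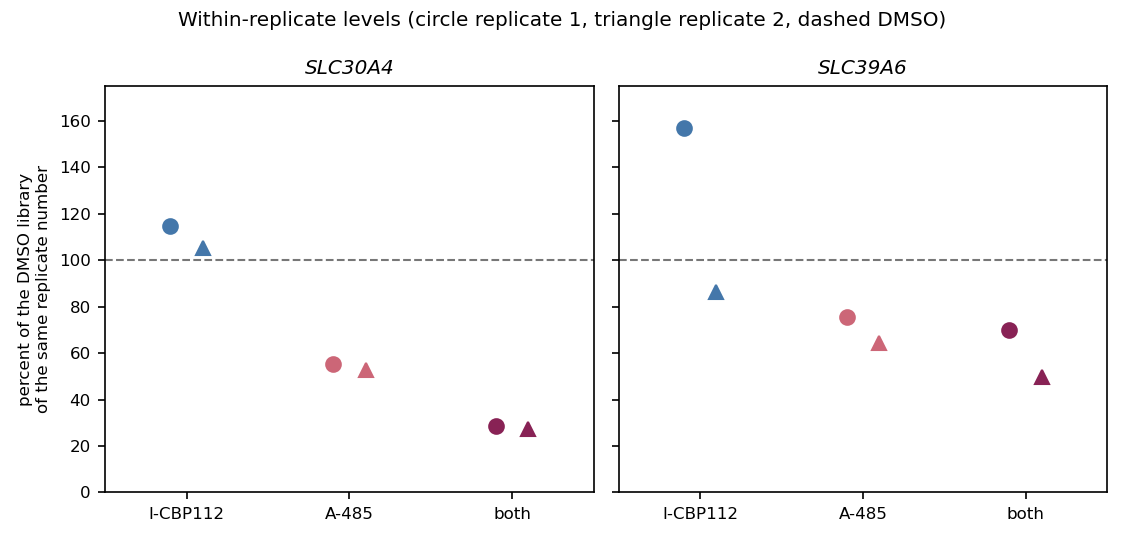
SLC30A4 (left) and SLC39A6 (right) in each treated library as a percentage of the DMSO library of the same replicate number (vertical axis, from 0; dashed line at DMSO); circles are replicate 1 and triangles replicate 2. SLC30A4 lies at 28.6% and 27.4% with both compounds, and SLC39A6 at 157% and 86.4% with I-CBP112, on either side of DMSO.

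Adding one compound to the other gave different steps. Both compounds against I-CBP112 alone gave a log2 fold change of -1.89 ± 0.17 for SLC30A4 (limma adjusted p = 0.00188). A-485 against I-CBP112 gave -0.998 ± 0.17 (limma adjusted p = 0.0477), a call kept in 2 of the 8 fits with a library left out, those without a DMSO library (limma adjusted p = 0.0487 to 0.339 over the 8). That call was also lost with median-of-ratios scaling, a pseudocount of 0.1 or no filter on low values (limma adjusted p = 0.0508, 0.0506 and 0.0742). Both compounds against A-485 alone gave -0.89 ± 0.17, which did not pass (limma adjusted p = 0.0795) but passed with the replicate number as a block (limma adjusted p = 0.0194). The interaction is the log2 change under joint treatment less the single changes added together. For SLC30A4 it was -1.03 ± 0.24, with an unadjusted p of 0.0029 (limma) that did not survive adjustment (limma adjusted p = 0.356, and 0.112 with the block). A departure from additive log2 changes was therefore not shown.

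SLC30A4 was represented by a single transcript, SLC30A4-201 of 7157 bases, so the transcript and gene levels were identical. Tested among 31837 transcripts, it passed with both compounds against DMSO (limma adjusted p = 0.0316) and against I-CBP112 (limma adjusted p = 0.0358), and in no other comparison. Both of these calls were lost in each of the 8 fits with a library left out. No other member transcript passed in any of the 7 comparisons. Among all transcripts, 0.022% passed with I-CBP112 and 0% with A-485 against DMSO, and 0.33% with both compounds. Between treatments it was 0% for both compounds against A-485, 0.113% for both against I-CBP112 and 0.00942% for A-485 against I-CBP112, and 0.00314% in the interaction. Exons of 2 genes on the opposite strand, HMGN2P46 and AC025580.2, overlap 2.66% and 1.66% of the exon bases of SLC30A4 in GENCODE 29, and no source used here gives the strand setting of the counting.

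With I-CBP112 alone, 0 of the 10 transporters passed the limma test against DMSO, as did 0% of all 11868 genes tested. At an unadjusted p under 0.05 there was 1 member (SLC30A5) among 1317 genes (11.1%), and limma-voom on approximate fragments called 0 members and 0% of all genes. With A-485, 1 of the 10 passed, against 4.55% of all genes. With both compounds it was again 1 of the 10, against 10.6% of all genes. In both cases the gene was SLC30A4, and the share of members was near that of all genes. Of the remaining comparisons, 1 of 10 passed between both compounds and I-CBP112 (2.22% of all genes), 1 of 10 between A-485 and I-CBP112 (0.859%), 0 between both compounds and A-485 (0.817%), and 0 in the interaction (0%), and each call was again SLC30A4. In the last 2, an unadjusted p under 0.05 was reached by 1 member each (SLC30A4), among 12.2% and 8.91% of all genes, and limma-voom called 1 and 0 members (2.87% and 0.295% of all genes). With the replicate block the members called numbered 0 with I-CBP112 (0% of all genes), 1 with A-485 (13.6%), 2 with both compounds (20%), 1 for both compounds against A-485 (1.34%), 2 for both against I-CBP112 (5.78%), 1 for A-485 against I-CBP112 (2.6%) and 0 in the interaction (0.0843%). The added calls were SLC39A6 in the comparisons of both compounds with DMSO and with I-CBP112, and SLC30A4 between both compounds and A-485. The median log2 fold change of the 10 was -0.04 with I-CBP112, -0.09 with A-485 and, under both compounds, -0.14, against 0.01, 0.01 and 0.04 over all genes. Comparisons with DMSO share the same DMSO libraries.

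**Figure D3:**
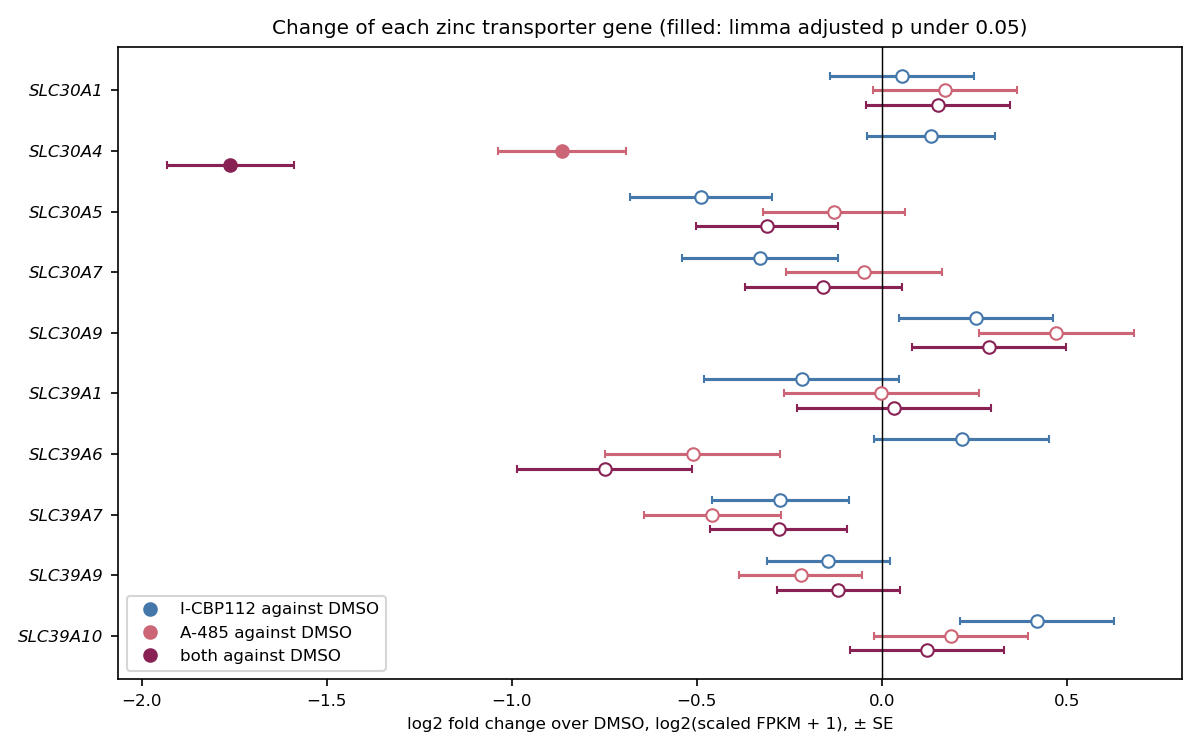
Log2 fold change over DMSO ± SE (horizontal axis, on log2 of scaled FPKM + 1) of each zinc transporter gene with I-CBP112, A-485 and both compounds, from the limma fit on 2 libraries per group; filled points have an adjusted p under 0.05. SLC30A4 holds the only filled points, at -0.86 with A-485 and -1.76 with both compounds, and SLC39A6 is the next lowest at -0.51 and -0.75.

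No other exporter passed the test. SLC30A1 encodes ZnT1, the exporter at the plasma membrane, and had the lowest mean of the members, at 3.93 and 4.27 with I-CBP112, 4.23 and 4.83 with A-485, 3.84 and 5.14 with both compounds and 3.95 and 3.86 with DMSO. Its groups overlapped except for A-485, where both libraries were above DMSO. The log2 fold changes over DMSO were 0.06 ± 0.19 (I-CBP112), 0.17 ± 0.19 (A-485) and 0.15 ± 0.19 (both compounds) (limma adjusted p = 0.943, 0.620 and 0.650).

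SLC30A5 and SLC30A7 encode ZnT5 and ZnT7, which load zinc into the early secretory pathway for enzymes such as alkaline phosphatase. SLC30A5 stood at 45.1 and 40.9 with I-CBP112, 62.9 and 48.9 with A-485, 52.4 and 45.3 with both compounds and 58.8 and 62.6 with DMSO. The I-CBP112 libraries lay below those of every other group. The change against DMSO, -0.49 ± 0.19, had an unadjusted p of 0.034 and did not pass (limma adjusted p = 0.417). SLC30A7 was 6.15 and 5.31 with I-CBP112, 8.22 and 6.23 with A-485, 5.82 and 7.39 with both compounds and 8.17 and 6.76 with DMSO, with log2 fold changes between -0.33 and -0.05, none of which passed. Its level was shared by SLC30A7-201 (49.7% of the mean) and SLC30A7-203 (49.2%), and that of SLC30A5 by SLC30A5-201 (29.3%), SLC30A5-202 (28.9%), SLC30A5-206 (20.4%) and SLC30A5-204 (17.1%).

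SLC30A9, which carries zinc out of mitochondria, was 20.6 and 18.7 with I-CBP112, 21.3 and 24.8 with A-485, 20.3 and 20.03 with both compounds and 13.4 and 19.7 with DMSO. Its DMSO libraries differed more from each other than any treated library differed from the higher of them. The change with A-485 was 0.47 ± 0.21 (limma adjusted p = 0.202). Summed over the 5 exporters, the level was 123.7 ± 2.08 with I-CBP112, 116 ± 6.44 with A-485, 93.2 ± 2.13 with both compounds and 135 ± 11.4 with DMSO (SD, n = 2 each), and SLC30A4 made up the largest part of the difference between both compounds and DMSO.

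Among the importers, SLC39A6 came nearest to a change. It encodes ZIP6 (LIV-1), an importer of the plasma membrane that pairs with ZIP10 and that oestrogen induces in breast carcinoma cells. Its scaled FPKM was 84.2 and 68.5 with I-CBP112, 40.6 and 51.0 with A-485, 37.5 and 39.4 with both compounds and 53.6 and 79.3 with DMSO. The A-485 and both-compound libraries lay below both DMSO libraries, while the I-CBP112 and DMSO libraries overlapped. The log2 fold change was 0.22 ± 0.24 with I-CBP112 (limma adjusted p = 0.764), -0.51 ± 0.24 with A-485 (limma adjusted p = 0.219) and -0.75 ± 0.24 with both compounds (limma adjusted p = 0.0831). None of these passed.

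Whether SLC39A6 passed varied with the settings. With the replicate number as a block, the change with both compounds passed against DMSO (limma adjusted p = 0.0447) and against I-CBP112 (log2 fold change -0.96 ± 0.24, limma adjusted p = 0.0892 without the block and 0.0445 with it). Without DMSO replicate 1 it passed as well, at -1.03 (limma adjusted p = 0.0486), whereas without DMSO replicate 2 the change was -0.47 (limma adjusted p = 0.221). With no scaling between libraries the change with both compounds was -0.0088 (limma adjusted p = 0.998). Limma-voom called it with A-485 (adjusted p = 0.0236, 16.1% of all genes called), with both compounds (adjusted p = 0.00618, 18.5%) and between both compounds and I-CBP112 (adjusted p = 0.0192, 4.42%). Between A-485 and I-CBP112, where limma-voom called 2.5% of all genes, SLC30A4 was the member called and SLC39A6 was not.

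Much of the spread between the DMSO libraries of SLC39A6 came from one isoform, SLC39A6-203. SLC39A6-201 (3543 bases) made up 68.0% of the gene's mean level and stood at 50.005 and 46.9 with I-CBP112, 27.5 and 30.1 with A-485, 22.4 and 28.4 with both compounds and 48.6 and 54.9 with DMSO. In this isoform the I-CBP112 and DMSO libraries overlapped and the A-485 and both-compound libraries lay below them. Its log2 fold change was -0.82 ± 0.19 with A-485 and -1.01 ± 0.19 with both compounds, with unadjusted p of 0.0045 and 0.0017, but among 31837 transcripts neither passed (limma adjusted p = 0.297 and 0.142). SLC39A6-203 (823 bases, 27.9% of the gene's mean) was 30.4 and 20.9 with I-CBP112, 9.996 and 19.0 with A-485, 12.0 and 10.1 with both compounds and 3.05 and 21.1 with DMSO. It held 5.68% of the gene in DMSO replicate 1 and 24.6 to 37.3% in the other 7 libraries.

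**Figure D4:**
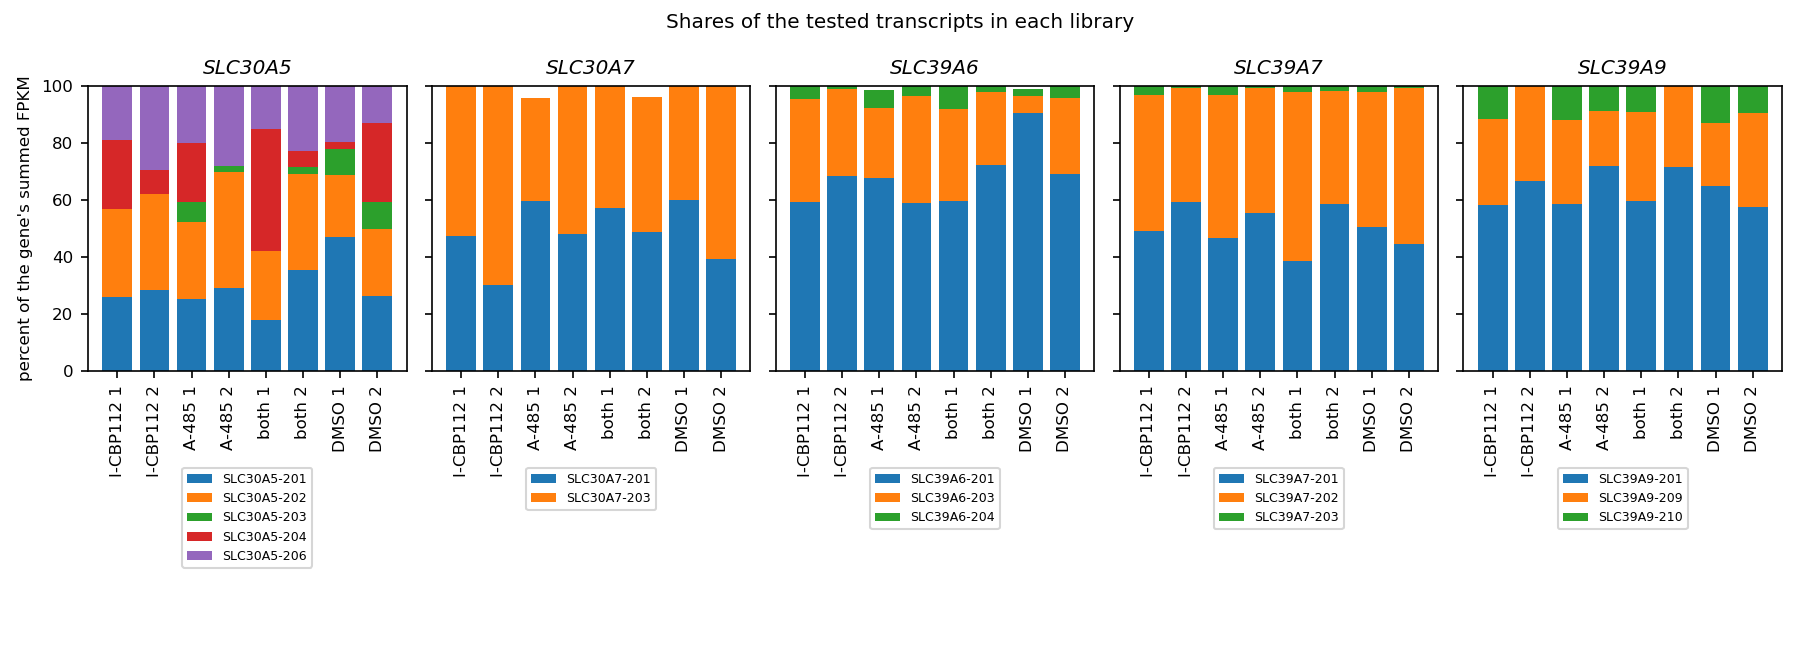
Share of each tested transcript in the summed FPKM of its gene (vertical axis, percent) for 5 zinc transporters with more than one main transcript, 1 bar per library; the blank at the top of a bar is held by transcripts under the filter. SLC39A6-201 takes 90.6% of the gene in DMSO replicate 1 and 59.0 to 72.1% in the other libraries, and SLC30A5-204 ranges from 0 to 42.9%.

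SLC39A1 encodes ZIP1, the importer usually named as the main route of zinc into prostate epithelium. Its level was 70.4 and 63.5 with I-CBP112, 88.1 and 68.7 with A-485, 85.0 and 74.7 with both compounds and 100.3 and 60.4 with DMSO. The DMSO libraries enclosed all 6 treated ones. The log2 fold changes were -0.22 ± 0.26, 0.00 ± 0.26 and 0.03 ± 0.26 with I-CBP112, A-485 and both compounds (limma adjusted p = 0.791, 0.998 and 0.951). One transcript, SLC39A1-202, held 93.0% of the gene's mean. In GENCODE 29 another protein-coding gene, AL358472.7, covers 60.8% of the exon bases of SLC39A1 on the same strand. It was not among the genes of the deposited values, so no level was assigned to it here.

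SLC39A7 encodes ZIP7, which releases zinc from the endoplasmic reticulum, and was the highest of the 10 in every group. It stood at 109 and 101 with I-CBP112, 94.3 and 90.9 with A-485, 105 and 105 with both compounds and 143 and 114 with DMSO. Every treated library lay below both DMSO libraries. The log2 fold changes were -0.27 ± 0.18, -0.46 ± 0.18 and -0.28 ± 0.18 with I-CBP112, A-485 and both compounds, none of which passed (limma adjusted p = 0.618, 0.171 and 0.366). SLC39A7-201 and SLC39A7-202 shared the gene almost evenly, at 50.2% and 48.1% of its mean. RXRB, on the opposite strand, overlaps 8.58% of its exon bases, as CREB3L4 does for 8.26% of SLC39A1, ERH for 5.23% of SLC39A9 and AC010273.1 for 9.20% of SLC30A5.

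SLC39A9 encodes ZIP9, a transporter of the Golgi and plasma membrane that has also been described as a membrane androgen receptor. Its level was 37.6 and 40.5 with I-CBP112, 39.8 and 34.3 with A-485, 40.1 and 39.5 with both compounds and 44.7 and 41.7 with DMSO. Every treated library was again below both DMSO libraries, by a log2 fold change of -0.22 to -0.12, and none passed (limma adjusted p = 0.435 to 0.779). SLC39A9-201 held 63.5% of its mean and SLC39A9-209 28.5%. SLC39A10, the partner of ZIP6 at the plasma membrane, was 7.90 and 6.19 with I-CBP112, 5.72 and 5.91 with A-485, 5.94 and 5.12 with both compounds and 4.26 and 5.80 with DMSO. Its I-CBP112 libraries lay above both DMSO libraries, with a log2 fold change of 0.42 ± 0.21 that did not pass (limma adjusted p = 0.502), and SLC39A10-201 and SLC39A10-204 held 88.2% and 11.8% of its mean. Summed over the 5 importers, the level was 295 ± 20.8 with I-CBP112, 259.6 ± 12.6 with A-485, 269 ± 6.97 with both compounds and 323 ± 31.95 with DMSO (SD, n = 2 each).

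Libraries of a treatment that lay wholly outside DMSO were common among all genes. With both compounds, 5 of the 10 members lay wholly below DMSO and 1 wholly above, against 26.5% and 29% of all genes. With A-485 there were 4 below and 2 above (25.9% and 26.7% of all genes), and with I-CBP112 4 below and 1 above (18.7% each). With 2 libraries a group this measure therefore says little about a single gene.

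In DMSO the members ran from SLC39A7 through SLC39A1, SLC39A6, SLC30A5, SLC30A4, SLC39A9, SLC30A9, SLC30A7 and SLC39A10 to SLC30A1, on a scale per transcript length. Means in that group were 128 for SLC39A7, 80.4 for SLC39A1, 66.5 for SLC39A6, 60.7 for SLC30A5, 46.7 for SLC30A4 and 43.2 for SLC39A9, followed by 16.6 for SLC30A9 and 7.47, 5.03 and 3.91 for the last 3. Neighbours whose DMSO libraries overlapped, and whose order was not set by these data, were SLC39A1 with SLC39A6, SLC39A6 with SLC30A5, and SLC30A4 with SLC39A9. With both compounds SLC30A4 dropped below SLC39A9, at 12.3 and 13.8 against 40.1 and 39.5, and also below SLC30A9, at 20.3 and 20.03. Among the 11868 genes tested, the DMSO mean of SLC39A7 was higher than 90.6%, that of SLC30A4 than 77.0% and that of SLC30A1 than 22.5%.

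Isoform use of the members was not shown to change. Shares could be tested for 22 member transcripts among 27674 in all, and 0 of the 22 passed in each comparison with DMSO, as did 0% of all shares (limma on the arcsine of the square root). At an unadjusted p under 0.05 there was 1 member with I-CBP112 and 1 with both compounds, SLC30A5-203 each time, and 0 with A-485, while 5.86% of all shares reached it with I-CBP112, 3.86% with both compounds and 4.35% with A-485. No other tool was run on shares. Shares of short isoforms were unstable between replicates. SLC30A5-204 (382 bases) held 24.3% and 8.71% of its gene with I-CBP112, 20.7% and 0% with A-485, 42.9% and 5.53% with both compounds and 2.41% and 27.8% with DMSO. The long SLC30A5-202 (4360 bases) ranged only from 22.1 to 41.0%.

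Of the remaining zinc transporter genes, 2 passed the test, each only with both compounds. Of 15 further zinc transporters (SLC30A2, SLC30A3, SLC30A6, SLC30A8, SLC30A10, SLC39A2, SLC39A3, SLC39A4, SLC39A5, SLC39A8, SLC39A11, SLC39A12, SLC39A13, SLC39A14 and TMEM163), 8 passed the filter and 7 stayed under a scaled FPKM of 1. Against DMSO none passed with I-CBP112 or with A-485 (limma, 0% and 4.55% of all genes). An unadjusted p under 0.05 was reached by 1 of the 8 with I-CBP112 (11.1% of all genes) and by 3 with A-485. The share over all genes was not counted for the latter, so no excess can be read from it. Limma-voom called 0 of the 8 with I-CBP112 and 2 with A-485 (0% and 16.1% of all genes), those with A-485 being SLC39A14 and SLC39A4. With both compounds 2 of the 8 passed, both lower, against 10.6% of all genes. Limma-voom called 3 (18.5% of all genes), adding SLC39A8. SLC39A14, an importer of zinc, iron and manganese, was 15.3 and 14.9 with both compounds and 30.7 and 26.8 with DMSO, a log2 fold change of -0.88 ± 0.21 (limma adjusted p = 0.0377). SLC39A4, the importer whose loss causes the zinc deficiency acrodermatitis enteropathica, was 27.98 and 28.3 with both compounds and 54.7 and 42.3 with DMSO, at -0.75 ± 0.18 (limma adjusted p = 0.0375). Both had libraries fully below DMSO, and both were marginal calls, kept in 2 and in 1 of the 8 fits with a library left out (limma adjusted p = 0.0297 to 0.172 and 0.0275 to 0.188). Without the filter on low values the call of SLC39A14 was lost (limma adjusted p = 0.0634). With no scaling between libraries the changes were -0.18 for SLC39A14 and -0.036 for SLC39A4, and neither passed (limma adjusted p = 0.980 and 0.994). With the replicate block and both compounds, 3 of the 8 passed as lower and 1 as higher, against 20% of all genes. The added ones were SLC39A8 (limma adjusted p = 0.00710) and SLC39A13 (limma adjusted p = 0.0242). With A-485, SLC39A4 passed with the block (limma adjusted p = 0.0274), against 13.6% of all genes. Over all 17 measured SLC30 and SLC39 genes, members included, 0 passed with I-CBP112 (0% of all genes), 1 with A-485 (4.55%) and, under both compounds, 3 (10.6%), each of them lower. With both compounds 7 of the 17 log2 fold changes were above 0, and none of these passed without the block.

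**Figure D5:**
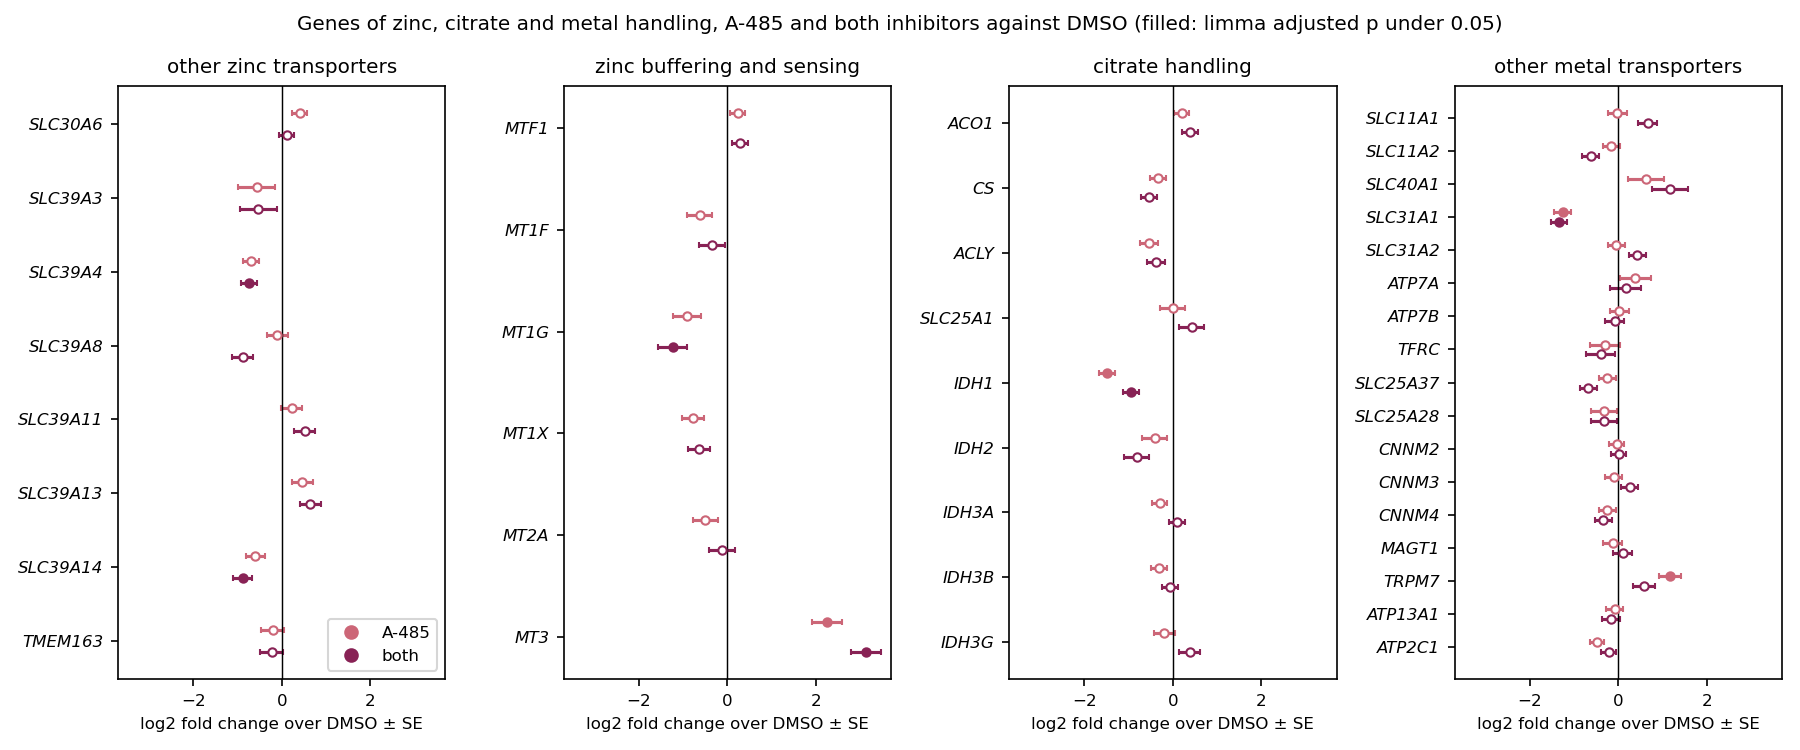
Log2 fold change over DMSO ± SE (horizontal axes) with A-485 and with both compounds for measured genes of 4 lists: other zinc transporters, zinc buffering and sensing, citrate handling, and other metal transporters; filled points have a limma adjusted p under 0.05. MT3 lies at 2.26 and 3.14, IDH1 at -1.499 and -0.95, and SLC31A1 at -1.26 and -1.34 with A-485 and with both compounds. MT3 is shown as a description, since both of its DMSO libraries lay under the filter.

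Zinc that enters the cytosol is bound by metallothioneins, which MTF1 induces. Of 12 such genes (MTF1 and 11 metallothioneins) 6 passed the filter. With I-CBP112, 0 passed the test (0% of all genes), 2 had an unadjusted p under 0.05 (11.1%) and limma-voom called 0 (0%). With A-485 the only gene under the threshold was MT3 (4.55% of all genes). With both compounds MT3 and MT1G were under it (10.6% of all genes). MT3, known best from brain, was listed at 2.70 and 4.15 with I-CBP112, 4.55 and 6.85 with A-485, 10.1 and 12.3 with both compounds and 0 and 0.894 with DMSO. Both DMSO libraries lay under the filter of 1, so MT3 entered the test only through the treated libraries in which it was higher, and its change is given as a description. The log2 fold change was 2.26 ± 0.34 with A-485 and 3.14 ± 0.34 with both compounds. Its place under the threshold is not taken as a test result. The level of MT3 rested on at most 62.9 fragments, with 0 and about 1.6 in the DMSO libraries. With a pseudocount of 0.1 the change was 5.15 with both compounds and 4.17 with A-485, where it was no longer under the threshold. With a library left out, the A-485 change of MT3 ranged from 1.80 to 2.72. MT1G was 44.0 and 36.8 with both compounds and 131 and 70.7 with DMSO (-1.24 ± 0.33, limma adjusted p = 0.0491), a call kept in 1 of 8 fits with a library left out (limma adjusted p = 0.0227 to 0.214) and lost with a pseudocount of 0.1 or without the filter on low values (limma adjusted p = 0.0511 and 0.0964). With no scaling the change of MT1G was -0.50 (limma adjusted p = 0.975). Metallothionein genes are near-identical, so reads could be split between them. With the replicate block MT1G passed as lower with A-485 too (limma adjusted p = 0.0339, 13.6% of all genes called). Limma-voom called MT1X with A-485 (16.1% of all genes called). MTF1 itself did not pass, at 0.23 ± 0.18 with A-485 and 0.28 ± 0.18 with both compounds (limma adjusted p = 0.450 and 0.346).

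Of 9 genes of citrate handling, all were measured and 1 passed, with A-485 (4.55% of all genes) and with both compounds (10.6%) alike. IDH1, the cytosolic isocitrate dehydrogenase, was 72.9 and 84.1 with A-485, 106 and 124 with both compounds and 219 and 227 with DMSO, a fall of -1.499 ± 0.18 and -0.95 ± 0.18 (limma adjusted p = 0.00722 and 0.0178). The A-485 call was lost without either A-485 library (limma adjusted p = 0.0618 and 0.0527), and that with both compounds without either of its own (limma adjusted p = 0.146 and 0.0790). With no scaling the changes of IDH1 were -1.001 with A-485 and -0.199 with both compounds, and neither passed (limma adjusted p = 1 and 0.980). With the replicate block ACLY was added with A-485 (limma adjusted p = 0.0408, 13.6% of all genes called). CS and IDH2 were added with both compounds (limma adjusted p = 0.0389 and 0.0259, 20% of all genes called), and all 3 were lower. Limma-voom added ACLY with A-485 and with both compounds (16.1% and 18.5% of all genes called). With I-CBP112 none of the 9 passed (0% of all genes). An unadjusted p under 0.05 (limma) was reached there by 0 of the 9 (11.1% of all genes), and limma-voom called 0 (0%).

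Of 19 transporters of other metals, 17 were measured. None passed with I-CBP112 (limma, 0% of all genes), and limma-voom called 0 (0%). In that comparison 2 had an unadjusted p under 0.05 (limma, 11.1% of all genes), SLC31A1 and TRPM7. With A-485, 2 of the 17 passed (4.55% of all genes), and with both compounds 1 (10.6%). SLC31A1, the copper importer CTR1, was 20.3 and 24.1 with A-485, 18.2 and 23.8 with both compounds and 54.0 and 54.8 with DMSO, at -1.26 ± 0.19 and -1.34 ± 0.19 (limma adjusted p = 0.0140 and 0.00508). The A-485 call was lost without either A-485 library or DMSO replicate 1 (limma adjusted p = 0.0882, 0.0751 and 0.0613), and that with both compounds was lost without replicate 1 of that group (limma adjusted p = 0.0540). With no scaling the changes of SLC31A1 were -0.76 and -0.60 (limma adjusted p = 1 and 0.975). TRPM7, a channel kinase that passes magnesium and zinc, was 10.8 and 10.6 with A-485 and 3.07 and 5.64 with DMSO, at 1.17 ± 0.25 (limma adjusted p = 0.0399), a call kept in 1 of the 8 fits with a library left out (limma adjusted p = 0.0138 to 0.205) and lost without the filter (limma adjusted p = 0.0733). With both compounds TRPM7 did not pass against DMSO. Its unadjusted p (limma) was under 0.05 for both compounds against A-485 (12.2% of all genes) and in the interaction (8.91%). No other gene of the list passed against DMSO. With the replicate block ATP2C1 was added with A-485 (limma adjusted p = 0.0448, 13.6% of all genes called). SLC11A2 and SLC25A37 were added with both compounds (limma adjusted p = 0.0268 and 0.0293, 20% of all genes called), and all 3 were lower. Limma-voom called 3 of the 17 with A-485 (16.1% of all genes), adding SLC40A1. With both compounds it called 4 (18.5%), adding SLC11A2, SLC25A37 and SLC40A1.

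The genes whose pattern over the 4 groups was most like that of SLC30A4 were LAMA3, ZIM2 and ST3GAL1, by the root mean square difference of log2 group means centred on the gene's own mean (0.050, 0.076 and 0.084 on the log2 scale, over 4 groups). LAMA3, a laminin chain of epithelial basement membranes, was 25.1 and 25.9 with I-CBP112, 9.80 and 14.2 with A-485, 5.75 and 7.40 with both compounds and 19.4 and 29.8 with DMSO. ST3GAL1, a sialyltransferase of mucin-type glycans, was 159 and 103 with I-CBP112, 76.7 and 52.7 with A-485, 46.5 and 30.9 with both compounds and 142 and 123 with DMSO. ZIM2, an imprinted zinc finger gene, was low throughout, at 3.30 and 2.26 with I-CBP112, 0.716 and 1.15 with A-485 and 1.88 and 4.17 with DMSO, and was listed at 0 with both compounds. The likeness was the criterion by which these 3 were picked, and it was not tested.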

How the data were processed

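RNA-seq values of 8 libraries were used. The authors deposited a single transcript table named as counts. Since 78.3% of its values are not whole and low values step inversely with transcript length, the deposited values were read as FPKM. Per the submitters' processing notes, the tools were STAR, Cufflinks, DESeq and DESeq2, with hg19 and GRCh37 as builds; no source used here gives their versions or roles. The step of 1 fragment gave approximate fragments, and 86.1 to 91.3% of low values were whole multiples within 0.1 fragment. Library depths open the results.

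Transcripts matched GENCODE 29 (GRCh38) by identifier without version in 74209 cases (91.0%, with 95.7 to 96.6% of the FPKM) and were summed by symbol. Each library was brought to 1e+06 and adjusted by a trimmed mean of ratios (30% of ratios and 5% of levels trimmed). Before that step, the median log2 fold change of all genes over DMSO was 0.05 (I-CBP112), 0.35 (A-485) and 0.58 (both), against 0.01, 0.01 and 0.04 afterwards, and changes are relative to these medians. The design had planned a count model for true counts and limma for normalized values, and limma was used: version 3.58.1, R 4.3.3, on log2(value + 1), which understates changes of low genes. Features at 1 or more in at least 2 libraries entered, with a mean for each group and a trended robust spread on 4 residual degrees of freedom. P-values were adjusted by Benjamini-Hochberg over all features tested, and 0.05 was the threshold. Scripts were tested on simulated data. There were 7 comparisons: 3 of a treatment with DMSO, 3 between treatments, and the interaction.

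Same-numbered libraries deviated together (correlation 0.145 to 0.425 over the 6 pairs of groups), and their descriptions share a prefix whose meaning the labels do not give, so a block on the replicate number is given where it changes the call of a member, or of a listed gene against DMSO. Members and lists were chosen with earlier results of these data known, and 1 planned gene of the citrate list is not reported here. Named were all 10 members, transcripts holding at least 10% of a gene or passing a test, listed genes passing against DMSO, and the 3 genes nearest in pattern to a member that passed. Others are named where a count is small or an alternative adds them, chosen after their values were seen. Alternatives were median-of-ratios scaling or none, a pseudocount of 0.1, no filter, the block, limma-voom on approximate fragments, the top transcript for the sum, and each library left out. With a library left out, a lone sample is assumed to vary like the other groups.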

Additional observations from a re-analysis of the deposited data

How the results depend on the processing

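Over the alternatives, 600 of 710 changes of single genes kept direction and side of the threshold. Of the others, 76 lost a call, 8 gained one and 26 turned sign. Most of the 710 were changes that the reported test had not called, so the 600 says little about the calls. The falls of SLC30A4 with both compounds, against DMSO and against I-CBP112, passed under each alternative but no scaling, where nothing passed. The count of transporters called was 0 in every comparison without scaling (reported counts 1 with A-485, 1 with both, 1 for both against I-CBP112 and 1 for A-485 against I-CBP112). For A-485 against I-CBP112 it was 0 with median-of-ratios scaling, a pseudocount of 0.1 or no filter. With the replicate block it was 2 with both compounds, 1 for both against A-485 and 2 for both against I-CBP112, and limma-voom gave the same 3 counts and 2 with A-485. Leaving out 1 library gave 0 with A-485, 1 to 2 with both, 0 to 1 for A-485 against I-CBP112, and 0 transcripts in the 2 comparisons where 1 had passed.

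Uncalled changes turned sign. Without scaling, SLC30A5 moved to 0.34 with A-485 and 0.41 with both, SLC30A7 to 0.28 and 0.35, SLC39A7 to 0.0212 and 0.46, SLC39A9 to 0.24 and 0.59, SLC39A1 to 0.46 with A-485, and SLC39A6 between both and A-485 to 0.0222. The median log2 fold change of all genes over DMSO was then 0.35 with A-485 and 0.58 with both. The cause of these turns was not tested. With limma-voom, SLC39A6 gave -0.0449 with I-CBP112 and SLC30A5 0.12 with A-485. With the top transcript, SLC39A6 gave -0.0922 with I-CBP112 and SLC30A7 0.0617 with A-485; the cause was not tested. Leaving out 1 library gave ranges that crossed 0: with A-485 SLC30A5 -0.31 to 0.0505, SLC30A7 -0.22 to 0.13 and SLC39A1 -0.36 to 0.36; with both SLC39A1 -0.33 to 0.39, SLC30A1 -0.0204 to 0.32 and SLC39A10 -0.0621 to 0.31; with I-CBP112 SLC30A9 -0.00613 to 0.52, SLC39A1 -0.58 to 0.14 and SLC39A6 -0.0618 to 0.49.

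Over all genes, the reported test called 0 with I-CBP112, 540 with A-485, 1259 with both, 97 for both against A-485, 264 for both against I-CBP112, 102 for A-485 against I-CBP112 and 0 in the interaction. The block called 0, 1616, 2375, 159, 686, 309 and 10 in that order, limma-voom 0, 1908, 2199, 341, 524, 297 and 35, and no scaling 0 throughout. No filter gave 356 with A-485, 59 for both against A-485, 160 for both against I-CBP112 and 41 for A-485 against I-CBP112. Leaving out 1 library gave 15 to 1345 with A-485, 267 to 1277 with both, 9 to 120 for both against A-485, 41 to 339 for both against I-CBP112, 6 to 115 for A-485 against I-CBP112, 0 to 2 with I-CBP112 and 0 in the interaction. With 2 libraries a group and 4.43 M fragments in the shallowest, small changes of low members such as SLC30A1 (73.6 fragments at lowest) could not be resolved.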
